A study of Mus musculus with 21 samples.

Results

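The genes described here are 37 mouse genes that are widely used to read the state of microglia in bulk brain RNA. They were taken by symbol from a list that was chosen with earlier results of these data known. All 37 were found among the 24411 genes of both deposited tables. The list has 14 homeostatic members (P2ry12, P2ry13, Tmem119, Cx3cr1, Sall1, Siglech, Gpr34, Olfml3, Csf1r, Selplg, Fcrls, Slc2a5, Tgfbr1 and Mertk) and 23 activation members (Apoe, Trem2, Tyrobp, Cst7, Lpl, Itgax, Axl, Spp1, Clec7a, Gpnmb, Cd9, Cd63, Cd68, Csf1, Cd52, Lyz2, Fth1, Tlr2, Aif1, Cd33, Fcer1g, Fcgr3 and Ly86).

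RNA was sequenced from the hippocampus of perfused wild-type male mice in 2 experiments, with 21 libraries in all. In the depletion experiment, mice of 22 to 24 months were injected every 4 days either with an antibody against CD8a, which removes CD8+ T cells (n = 5), or with an IgG2b isotype control antibody (n = 5). In the transfer experiment, B6.SJL-Ptprca Pepcb/BoyJ recipients of 4 months received CD8+ T cells from C57BL/6J donors. The donors were 22 to 28 months old for the aged T group (n = 5) and 3 to 4 months old for the young T group (n = 6). Both transfer groups were given the CD8a antibody on days -11 and -7 to deplete the host's CD8+ T cells before the transfer, and the stated amounts were 300000 cells in the first injection and 3000000 in the second. The labels name no untreated mice, and they do not say that each library is a separate mouse, so p-values measure the spread between these samples. The comparisons address how the aged hippocampus differs without peripheral CD8+ T cells, and how the young hippocampus differs after receiving aged rather than young CD8+ T cells.

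Microglia are the resident macrophages of the brain parenchyma. They depend on CSF1R signalling, and in the healthy brain they express sensors such as the purinergic receptor P2RY12 and the fractalkine receptor CX3CR1 under the control of factors including PU.1 and SALL1. Around plaques, dying cells and ageing myelin, microglia can move to a damage-associated state in which genes such as Apoe rise while homeostatic genes decline. The lipid receptor TREM2 and its signalling adaptor TYROBP are needed to raise genes of this state such as Cst7, Itgax and Clec7a. Several of the 37 genes are not made by microglia alone: astrocytes make much of the brain's Apoe and also express Mertk, oligodendrocytes are rich in Cd9 and Fth1, and Lyz2 and Itgax are also expressed by infiltrating myeloid cells. In bulk tissue, a change in the number of cells of a type and a change in RNA per cell cannot be told apart.

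Libraries held 9957822 to 15055422 reads assigned to genes, and the antibody libraries were on average the shallowest, at 10972876 reads against 13129229 for IgG2b. P2ry12, Tmem119, Cx3cr1 and Csf1r were detected in all 21 libraries, at no less than 232 normalized counts, so the microglial markers were measurable in every library. Transcripts of T cells were at or near 0: Cd8a had 14 reads over the 5 antibody libraries and 10 over the 5 IgG2b libraries, Gzmk had 0 reads in both of these groups, and Cd3d had 0 reads in the transfer experiment. The tissue RNA therefore gave no measure of how far CD8+ T cells were removed. Antibody replicate 5 stood apart on the first principal component of the depletion experiment, at 57.3 against -28.2 to 6.90 for the other 9 libraries. Markers of the ventral hippocampus were lower in the antibody group for 4 of 5 genes, with a median log2 difference of -0.82. All 4 were lower at an unadjusted limma p under 0.05, where 4.15% of all genes tested were.

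In aged mice given the CD8a antibody, most of the microglial genes were measured at higher levels than in the IgG2b mice, by modest amounts. Of the 37 members, 33 were higher and 4 lower, where 49.6% of the 13939 genes tested were higher and 50.4% lower. The median of the members' log2 differences was 0.317 (1.25-fold), beside -0.00204 over all genes. The activation members were higher by a median of 0.43 on the log2 scale (20 of 23 higher) and the homeostatic members by 0.26 (13 of 14 higher), so neither set was lower while the other was higher. Lyz2, Fcrls, Ly86, Aif1 and Tyrobp had the smallest p-values. Among members with a mean of at least 10 normalized counts in both groups, Clec7a and Cd52 had the largest differences. No member passed a Benjamini-Hochberg adjusted p of 0.05 over all genes with limma, the main test, which called 1 gene of 13939 (0.00717%). Differences are fitted on log2(normalized count + 1).

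At an unadjusted p under 0.05, 15 of the 37 members (40.5%) were higher and 0 were lower, where 4.31% of all genes tested were higher and 4.15% lower. These 15 were 4 homeostatic members (Fcrls, Olfml3, P2ry12 and Gpr34, the last with an unadjusted limma p of 0.04998) and 11 activation members. Among the 11 are Itgax and Cst7, whose IgG2b means of 5.73 and 7.79 lay under the minimum of 10 set on the mean of all libraries, so that they were tested through the antibody group, where they were high. Without these 2, the count was 13 of 35 (37.1%) and the median log2 difference of the members 0.312. In 4 members every antibody library lay above every IgG2b library (Fcrls, Tyrobp, Lyz2 and Aif1), a separation seen in 0.782% of all genes tested. Genes expressed in the same cells vary together from mouse to mouse, so the members are not independent and these counts carry no test of their own. DESeq2 on the recovered reads called 1 member, Lyz2, among 92 of 14024 genes (0.656%), of which 30 (0.214%) were higher. The authors' deposited table also has Lyz2 as the only member below 0.05, at an adjusted p of 0.0224. edgeR and limma-voom called 0 members, with 1 gene each called overall (0.00717%).

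**Figure D1:**
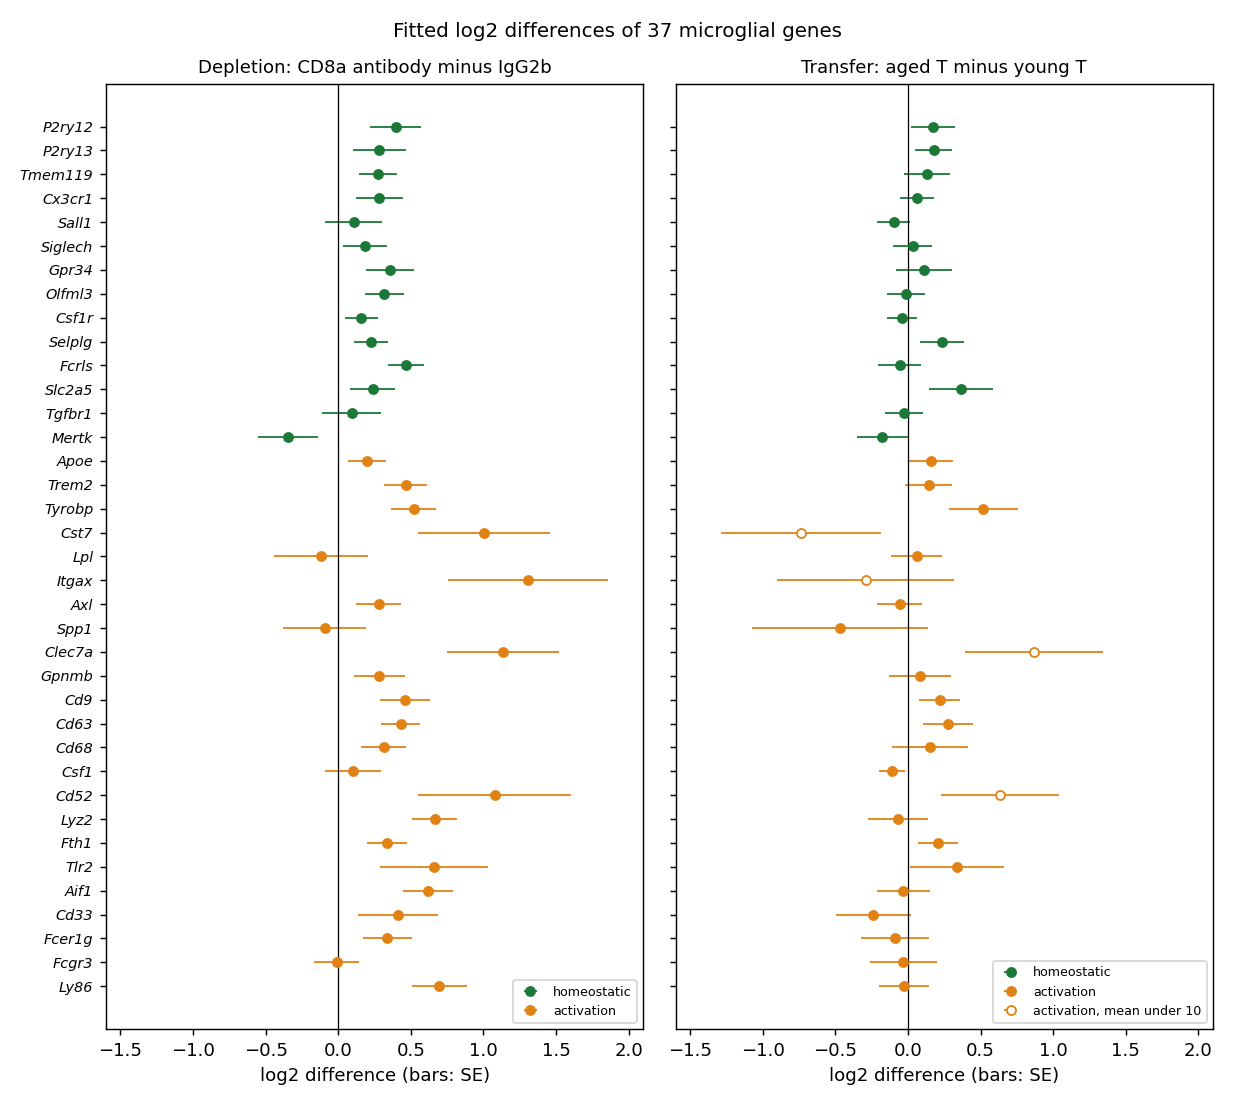
Fitted log2 differences of the 37 genes (x axis, log2 of normalized count + 1; bars, SE) in the depletion experiment (left, 5 against 5 libraries) and the transfer experiment (right, 5 against 6), homeostatic members in green and activation members in orange, open points for genes with a mean normalized count under 10. On the left 33 of 37 points lie above 0; on the right the 33 filled points lie on both sides of it, 18 above and 15 below.

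Promoters are shown because many microglial genes are known targets of PU.1, the myeloid factor encoded by Spi1, whose core recognition sequence is GAGGAA. Of the 8 members with the smallest p-values, 7 had a RefSeq window of the 250 bases before a transcription start (GRCm38.p6), and Tyrobp had none. Other starts are annotated for several of them: in GENCODE vM21, 214 bases of the window lie inside the gene in Fcrls, 137 in Ly86, 49 in Lyz2, 16 in Aif1 and all 250 in Cd63. Bases from the first annotated UTR on are left out for Ly86 and Lyz2, and Fcrls is not printed because 36 bases of its window lie before the first annotated UTR. Sequences run 5′ to 3′ in the direction of transcription, with GAGGAA or its reverse complement in capitals.
Lyz2, chr10:117282322-117282522, minus strand: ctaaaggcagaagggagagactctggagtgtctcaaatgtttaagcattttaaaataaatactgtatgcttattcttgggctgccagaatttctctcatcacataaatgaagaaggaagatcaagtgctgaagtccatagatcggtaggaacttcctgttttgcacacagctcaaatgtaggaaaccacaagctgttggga
Ly86, chr13:37345095-37345207, plus strand: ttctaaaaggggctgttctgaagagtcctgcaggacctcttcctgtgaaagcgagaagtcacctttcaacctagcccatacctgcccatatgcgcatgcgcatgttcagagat
Aif1, chr17:35176053-35176302, minus strand: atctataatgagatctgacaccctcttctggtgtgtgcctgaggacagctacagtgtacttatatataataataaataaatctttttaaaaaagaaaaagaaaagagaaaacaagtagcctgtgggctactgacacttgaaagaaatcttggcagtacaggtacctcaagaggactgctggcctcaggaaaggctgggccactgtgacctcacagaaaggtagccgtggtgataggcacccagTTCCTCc
Cd63, chr10:128909095-128909344, plus strand: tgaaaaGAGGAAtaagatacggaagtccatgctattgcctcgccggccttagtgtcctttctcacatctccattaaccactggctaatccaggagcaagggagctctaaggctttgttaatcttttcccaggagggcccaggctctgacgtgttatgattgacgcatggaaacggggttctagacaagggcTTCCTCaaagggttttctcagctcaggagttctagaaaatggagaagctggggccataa
Trem2, chr17:48346151-48346400, plus strand: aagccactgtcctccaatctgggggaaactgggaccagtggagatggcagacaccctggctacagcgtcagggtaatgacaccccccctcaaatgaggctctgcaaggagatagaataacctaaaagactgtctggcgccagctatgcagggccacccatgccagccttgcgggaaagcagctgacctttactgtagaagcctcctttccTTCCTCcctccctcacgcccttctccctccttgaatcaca
Clec7a, chr6:129472780-129473029, minus strand: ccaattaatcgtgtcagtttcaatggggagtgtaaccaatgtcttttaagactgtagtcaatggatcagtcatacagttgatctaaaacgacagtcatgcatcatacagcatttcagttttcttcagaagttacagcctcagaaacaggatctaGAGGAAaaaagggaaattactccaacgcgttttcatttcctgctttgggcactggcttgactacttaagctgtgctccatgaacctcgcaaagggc

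Over the full windows, 5 of the 7 held a match, and Lyz2 and Ly86 held none. The nearest base of a match lay 139 bases before the RefSeq start in Fcrls, 54 in Cd63 and 2 in Aif1. In Fcrls, Cd63 and Aif1 the matches lay inside the gene as GENCODE annotates it. In Trem2 and Clec7a, whose windows had 0 bases inside the gene, the nearest base lay 35 and 91 bases before the start. Windows were matched for 30 of the 37 members, some with several, and a gene was counted if any of its windows held the motif. On either strand, GAGGAA was in 13 of these 30 (43.3%), in 3 of 10 homeostatic (30%) and 10 of 20 activation members (50%), and in 6986 of all 27025 genes with a window (25.9%). The other motifs searched on both strands were CACGTG (2 of 30 members, 6.86% of all genes), TGANTCA (3 of 30, 7.82%), the interferon-stimulated response element core (2 of 30, 3.46%) and the NF-kB core (2 of 30, 1.36%), and matches of different motifs may overlap. A match is a string of letters and not a measured binding site. Spi1 itself was at 69.3 normalized counts in antibody mice and 47.0 in IgG2b mice, a log2 difference of 0.59 (SE 0.21, unadjusted p = 0.0161, limma adjusted p = 0.454).

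Among the homeostatic members, Fcrls, an Fc receptor-like protein that marks microglia against other brain macrophages, was the clearest. Its normalized counts were 373, 379, 363, 361 and 397 in the 5 antibody libraries and 317, 326, 234, 268 and 224 in the 5 IgG2b libraries. All antibody values lay in a narrow band above the highest IgG2b value, and the log2 difference was 0.47 (SE 0.13, limma adjusted p = 0.311, DESeq2 adjusted p = 0.0806). P2ry12, the receptor that steers microglial processes toward released nucleotides, was at 531, 546, 414, 571 and 420.4 with the antibody and 394, 529, 333, 418 and 252 with IgG2b. IgG2b replicate 2 lay above antibody replicates 3 and 5 and IgG2b replicate 4 above antibody replicate 3, so the groups overlapped, and the log2 difference was 0.39 (SE 0.18, limma adjusted p = 0.563).

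Tmem119, a transmembrane protein found on microglia and scarce on other macrophages, was at 568, 372, 393, 377 and 515 with the antibody and 344, 376, 340.4, 385 and 366 with IgG2b. Antibody replicates 1, 3 and 5 lay above all IgG2b libraries and replicates 2 and 4 within their range, for a log2 difference of 0.27 (SE 0.13). Cx3cr1 was at 1285, 1045, 969, 1024 and 628 with the antibody and 893, 933, 707, 779 and 683 with IgG2b. Antibody replicates 1 to 4 lay above every IgG2b library and replicate 5 below every one. Csf1r, the receptor that microglia need to survive, showed the same arrangement, at 1294, 1139.8, 1264, 1178 and 872 against 1049.7, 1036, 961, 1004 and 1051. Its log2 difference of 0.16 (SE 0.11) was among the smaller ones.

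The other homeostatic members overlapped between the groups and ranged from 0.0915 (Tgfbr1) to 0.36 (Gpr34) in log2 difference, with Mertk as the exception. Mertk, a receptor tyrosine kinase for the uptake of dead cells that astrocytes also express, was at 343, 593, 324, 309 and 243 with the antibody and 403, 323, 547, 487 and 469 with IgG2b. Antibody replicate 2 held the highest value of all 10 libraries and the other 4 antibody libraries lay below 4 of the 5 IgG2b libraries, and the fitted difference was -0.34 on the log2 scale (SE 0.21, limma adjusted p = 0.681).

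The TREM2 receptor complex was represented by its receptor and its adaptor. Trem2 was at 370.1, 214, 253, 275 and 309 normalized counts with the antibody and 241, 199, 188, 191 and 196 with IgG2b. Antibody replicates 1, 3, 4 and 5 lay above all IgG2b libraries and replicate 2 above 4 of the 5, and the log2 difference was 0.46 (SE 0.15, limma adjusted p = 0.371). Tyrobp, the adaptor through which TREM2 and other receptors signal, was at 149, 186, 131, 165 and 225 against 124, 123, 105, 111 and 122, with no overlap. Its log2 difference was 0.52 (SE 0.15, limma adjusted p = 0.332, DESeq2 adjusted p = 0.102). The related adaptor Fcer1g differed by 0.34 and the inhibitory receptor Cd33 by 0.41, each with overlapping groups.

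Lyz2, which encodes the lysozyme of macrophages and microglia, had the smallest p-value of the 37. It was at 214, 247, 203, 256 and 186 with the antibody and 129, 106, 143, 142 and 181 with IgG2b, so the lowest antibody library was just above the highest IgG2b library. The means were 221 ± 29.6 and 140.4 ± 27.4 (SD, n = 5 each), with a log2 difference of 0.66 (SE 0.15). The limma adjusted p was 0.233 and the DESeq2 adjusted p 0.0224. Leaving out 1 library at a time, DESeq2 kept Lyz2 below 0.05 in 4 of the 10 fits (without antibody replicate 2, 3 or 5, or IgG2b replicate 5). Without any of the other 6 libraries its adjusted p was 0.0632 to 0.114.

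Aif1, the gene of the microglial and macrophage protein IBA1, was at 119.8, 115, 102, 92.7 and 137 against 88.9, 74.3, 54.7, 72.9 and 77.3. The groups did not overlap, and the log2 difference was 0.62 (SE 0.17, limma adjusted p = 0.311). Ly86, the MD-1 partner of the Toll-like receptor relative CD180, was at 228, 223, 171, 297 and 258 against 156, 212, 124, 132 and 107. Antibody replicate 3 alone lay within the IgG2b range, below IgG2b replicate 2, and the log2 difference was 0.70 (SE 0.19, limma adjusted p = 0.311).

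Cd63, a tetraspanin of late endosomes and lysosomes expressed by many cell types, was at 1819, 2404, 1798, 1697 and 1850.3 against 1726, 1543, 1316, 1091 and 1459.9. Only antibody replicate 4 lay below the highest IgG2b library, and the log2 difference was 0.43 (SE 0.13, limma adjusted p = 0.355). Apoe, the lipid carrier that astrocytes make in quantity, was at 33983, 43739, 30695, 31491 and 37496 with the antibody and 29885, 34899.8, 28678, 28224 and 32181 with IgG2b. The groups overlapped and the log2 difference was 0.20 (SE 0.13). Per kilobase of transcript, Apoe and the iron-storage gene Fth1 were the most abundant of the 37 in IgG2b mice (27575 and 27239 normalized counts per kilobase), far above Csf1r (238), Cx3cr1 (213) and Trem2 (189.5), and Itgax was the lowest (2.18).

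**Figure D2:**
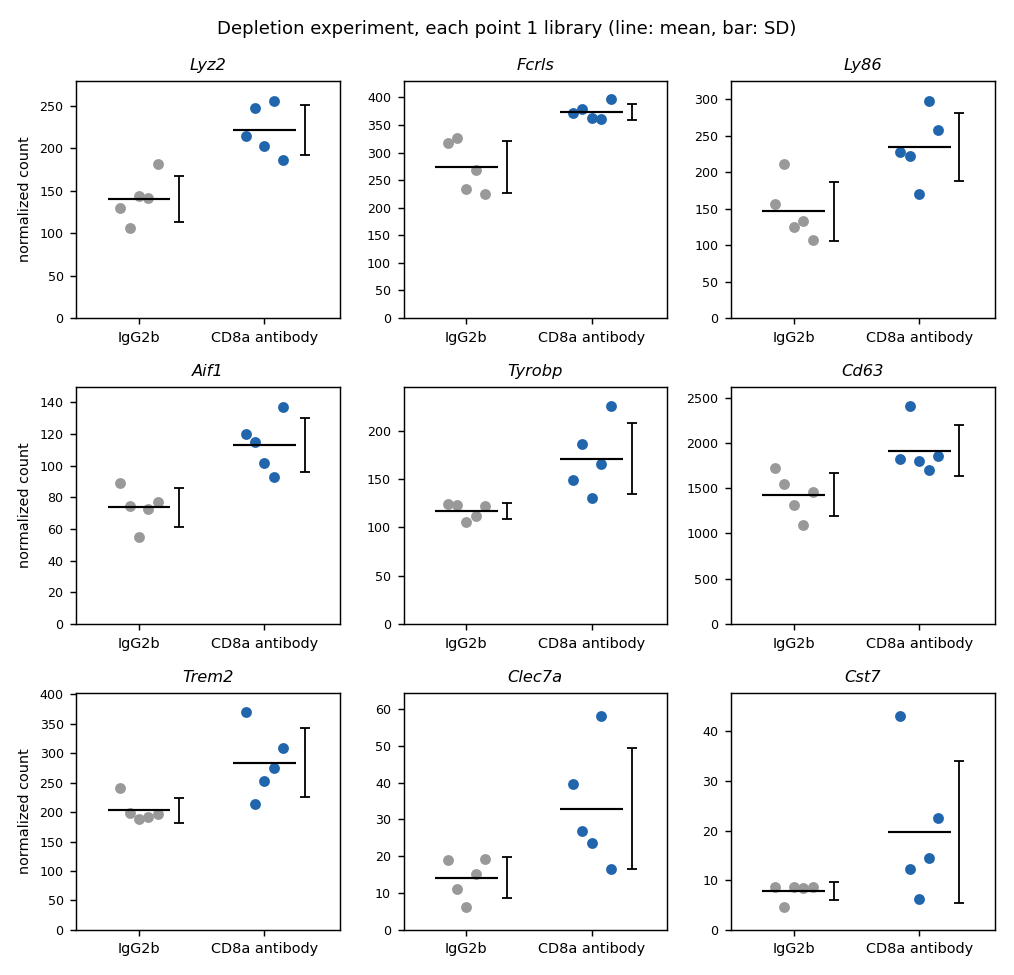
Normalized counts (y axis, from 0) of 9 members in each library of the depletion experiment, IgG2b in grey and CD8a antibody in blue, with the mean as a line and the SD as a bar (n = 5 per group). Lyz2, Fcrls, Aif1 and Tyrobp show no overlap; for Cst7, antibody replicate 1 at 43.1 stands above the other 9 libraries.

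Clec7a, Itgax and Cst7, which rise in the damage-associated state, had few reads and wide errors. Clec7a, the receptor Dectin-1, was at 39.5, 26.7, 23.6, 58.1 and 16.7 with the antibody and 19.0, 11.2, 6.08, 15.1 and 19.3 with IgG2b, from 149 and 77 reads in all. The highest 4 antibody values lay above every IgG2b value, and the log2 difference was 1.14 (SE 0.39, limma adjusted p = 0.410). Itgax, the integrin subunit CD11c, was at 28.7, 12.3, 14.4, 22.3 and 3.92 against 5.18, 9.29, 1.74, 9.22 and 3.22. Antibody replicates 1 to 4 lay above every IgG2b library and replicate 5 within their range, and the fitted difference was 1.31 on the log2 scale (SE 0.55, limma adjusted p = 0.532).

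Cst7, the protease inhibitor cystatin F, was at 43.1, 12.3, 6.17, 14.5 and 22.5 against 8.63, 4.65, 8.68, 8.38 and 8.59. Replicates 1, 2, 4 and 5 of the antibody group lay above all IgG2b libraries, with replicate 1 far above the rest, and the fitted difference was 1.003 on the log2 scale (SE 0.46, limma adjusted p = 0.576). Cd52, a small surface glycoprotein of leukocytes, differed by 1.08 (SE 0.53). The mean of Itgax over all 10 libraries, 11.03, was the lowest of the members tested, just inside the minimum of 10. Of other genes known to rise in that state, Apoe differed by 0.20, as given above, Lpl by -0.12 (SE 0.32) and Spp1 by -0.0924 (SE 0.29), and Gpnmb by 0.28 (SE 0.18), all with overlapping groups. Fcgr3, a low-affinity IgG receptor, was the remaining member that was not higher, at -0.0106 (SE 0.16).

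The 2 sets were set against each other library by library, as the median over members of the log2 level relative to the IgG2b mean. In the antibody libraries, the activation median ran from 0.31 to 0.63 and the homeostatic median from 0.0573 to 0.45, against -0.0749 to 0.0875 and -0.11 to 0.0946 in the IgG2b libraries. All 5 antibody libraries thus lay above all 5 IgG2b libraries for the activation set, and 4 of 5 did for the homeostatic set, replicate 5 being the exception. The activation median exceeded the homeostatic median in all 5 antibody libraries, by 0.14 to 0.33, and by -0.0543 to 0.17 in IgG2b. Of the activation members, 18 of 23 differed by more than the homeostatic median and 9 of 23 by more than the largest homeostatic value. These medians and counts include Itgax and Cst7, which were tested through the antibody group, where they were high. Both, at 1.31 and 1.003, are among the 18 and among the 9. Neither those counts nor the medians by library were computed without them. What was computed without these 2 is the number of activation members with a difference above 0, 18 of 21, and their median difference, 0.41. Of these 21, 9 were higher at an unadjusted limma p under 0.05. After subtracting the trend of the log2 differences with transcript length, the medians were 0.33 and 0.25, closer together.

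**Figure D3:**
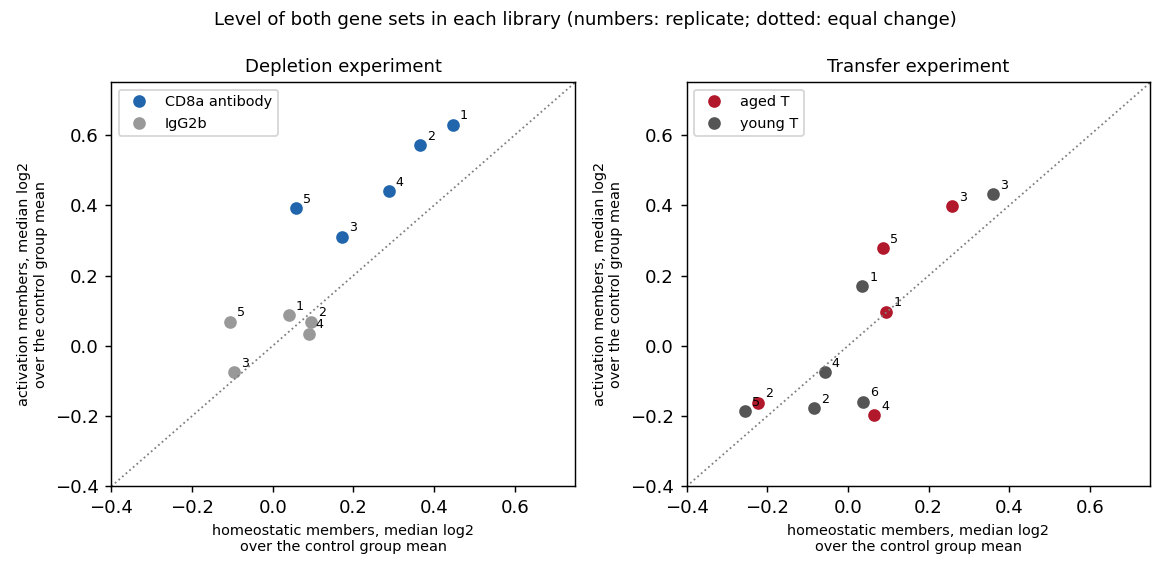
Median log2 level of the homeostatic members (x axis) and activation members (y axis) over the mean of the control group, 1 point per library with its replicate number, in the depletion (left) and transfer (right) experiments. CD8a antibody libraries sit above the IgG2b libraries on the y axis (0.31 to 0.63 against -0.0749 to 0.0875), while aged T and young T libraries are mixed.

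Antibody replicate 5, the library that stood apart, was the lowest of its group in 15 of 37 members, among them Cx3cr1, Csf1r, Itgax and Clec7a, and was the highest in 7, among them Tyrobp, Aif1 and Fcrls. Without it, 35 of 37 members were higher and 19 were higher at an unadjusted p under 0.05, where 7.22% of all genes were. Without IgG2b replicate 3, this count was 8, where 3.3% of all genes were, and without antibody replicate 1 it was 10 (3.43% of all genes). With any library left out, 31 to 35 members were higher and limma called 0 of them. DESeq2, which called Lyz2 alone with all libraries, called Cx3cr1, Clec7a, Cd9 and Lyz2 higher without antibody replicate 5 (4 of 37 or 10.8%, adjusted p of 0.00270 to 0.0340), where 1.08% of all genes were called higher. Without antibody replicate 2 it called Trem2 and Lyz2 (0.36% of all genes), and without antibody replicate 3 Tyrobp, Lyz2 and Ly86 (0.143%). It called Fcrls and Ly86 without IgG2b replicate 2 (0.294%) and Lyz2 without IgG2b replicate 5 (0.0629%). In the other 5 fits it called 0 members and 0.021% to 0.187% of all genes higher.

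Further microglial genes were also higher. Of 26 other microglia-enriched genes, all 26 were higher with the antibody, with a median log2 difference of 0.35. At an unadjusted p under 0.05, 13 (50%) were higher, where 4.31% of all genes tested were. Like the members, this list and the next ones were chosen with earlier results of these data known. They included C1qc and C1qb, subunits of the complement initiator C1q, at 763 against 555 (log2 difference 0.46, DESeq2 adjusted p = 0.0603) and 816 against 636 (0.36, DESeq2 adjusted p = 0.109). Cyth4 differed by 0.45 and Tbxas1, the thromboxane synthase, by 0.94. Of 24 further damage-associated genes, 21 were tested and 16 were higher (median 0.195). At an unadjusted p under 0.05, 5 (23.8%) were higher and 1 lower.

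B2m, the light chain shared by MHC class I molecules, had the smallest p of that list, at 1383 ± 30.9 with the antibody and 976 ± 107 with IgG2b (SD, n = 5 each). The groups did not overlap, and the log2 difference was 0.51 (SE 0.0947, limma adjusted p = 0.148, DESeq2 adjusted p = 0.000354), so it passed DESeq2 and not limma. The cathepsin gene Ctsz (733 against 582, DESeq2 adjusted p = 0.0903) and the lectin gene Lgals3 (25.8 against 13.6, DESeq2 adjusted p = 0.210) also did not overlap. Higher groups without overlap were seen in 0.782% of all genes tested. Cadm1, an adhesion molecule that neurons express, was lower, at 2550.1 against 3788 (log2 difference -0.58, DESeq2 adjusted p = 0.00401).

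Among genes that signal below TREM2 and TYROBP, 12 of 15 were tested and 11 were higher (median 0.30). At an unadjusted p under 0.05, 3 (25%) were higher, where 4.31% of all genes were. These were the kinase gene Syk at 65.5 against 40.7, Pik3ap1 at 39.2 against 23.4 and Blnk at 62.2 against 43.0. Of 12 transcription factors of microglia, 9 were higher (median 0.13), 2 (16.7%) at an unadjusted p under 0.05. These were Spi1 and Tfeb, a regulator of lysosomal genes (135 against 101, no overlap, as in 0.782% of all genes). Ligands and partners of microglial receptors were divided: 5 of 11 tested were higher and 6 lower (median -0.0330). Cd200, a neuronal ligand that restrains microglia, was at 918 ± 104 with the antibody and 1187 ± 44.5 with IgG2b (SD, n = 5 each), with no overlap. Its log2 difference was -0.38 (SE 0.0991, limma adjusted p = 0.294, DESeq2 adjusted p = 0.0405), and lower groups without overlap were seen in 1.27% of all genes.

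Markers of other cell types were read beside these results. The summed normalized counts of 10 border macrophage markers ranged from 196 to 341 with the antibody and from 191 to 329.5 with IgG2b, with Stab1 and Mrc1 as their most abundant genes. The 7 monocyte markers gave 363 to 738 against 464 to 623, nearly all from Fn1 and Vcan, which other brain cells express. The defining monocyte genes were near 0, with 17 and 13 reads of Ccr2 and 2 and 4 reads of Ly6c2 over the groups, and the 6 neutrophil markers found in the table gave 3.92 to 52.4 against 2.59 to 31.0.

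Oligodendrocyte markers were higher for 10 of 10 genes (median 0.39), with sums of 50240 to 96843 against 47808 to 61772, and choroid plexus markers for 10 of 10 (median 0.52), with sums of 841 to 32447 against 2079 to 27611. At an unadjusted limma p under 0.05, 5 of the 10 oligodendrocyte markers (50%) and 0 choroid plexus markers were higher, where 4.31% of all genes were. The share was 40.5% for the 37 members. Oligodendrocyte sums were highest in antibody replicates 1, 2 and 4, the libraries in which both microglial medians were highest. Endothelial markers were higher for 8 of 10 genes (median 0.22), 2 of them (20%) at an unadjusted limma p under 0.05. Fibroblast markers were higher for 8 of 10 genes (median 0.36), with 1 higher (10%) and 1 lower at that threshold. The medians were 0.0159 for astrocyte and -0.10 for neuron markers. Within the astrocyte list 6 of 10 genes were higher and 4 lower, and 1, Gfap, was higher at an unadjusted limma p under 0.05. Gfap, the filament protein that astrocytes raise when reactive, was at 10539 ± 2368 against 6847 ± 661 (SD, n = 5 each), a log2 difference of 0.60 (unadjusted p = 0.000913, limma adjusted p = 0.245). DESeq2 called 1 of 10 markers, in either direction, in each of the astrocyte, oligodendrocyte and fibroblast lists. It called 1 of 5 ventral hippocampal markers and 0 of 10 endothelial, choroid plexus or neuron markers, where 0.656% of all genes were called. Of the 37 members it called 1. The part of these cell types, and of the ventral hippocampal markers given above, in the microglial differences was not tested.

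**Figure D4:**
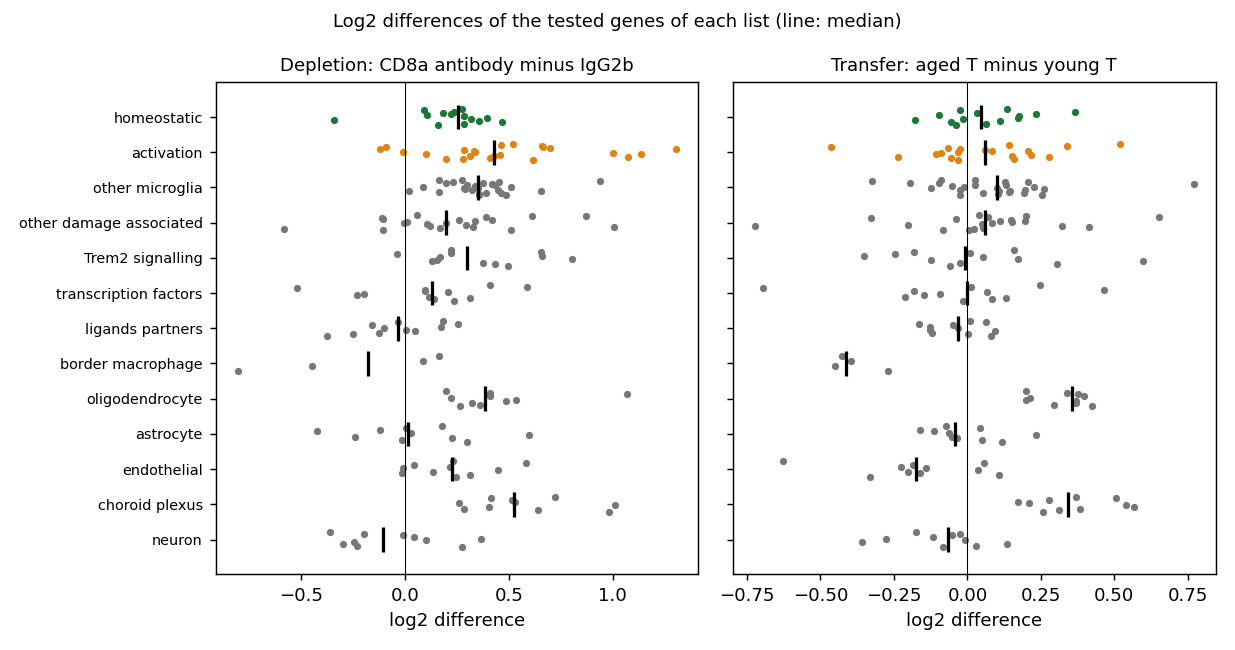
Fitted log2 differences (x axis) of the tested genes of each list (y axis), 1 point per gene with the median as a line, in the depletion (left) and transfer (right) experiments. On the left the homeostatic, activation and other microglia lists have medians of 0.26, 0.43 and 0.35 and the oligodendrocyte list 0.39; on the right the first 3 lists lie near 0 (0.0475, 0.0595 and 0.10) and the oligodendrocyte list at 0.35.

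In young mice that received aged rather than young CD8+ T cells, the microglial genes were divided between higher and lower, and the division moved with single libraries. Of the 33 members that passed the minimum mean of 10 normalized counts, 18 were higher and 15 lower with aged T cells, where 49% of the 14162 genes tested were higher and 51% lower. Homeostatic members had a median log2 difference of 0.0475 (8 of 14 higher) and activation members 0.0595 (10 of 19 higher), beside -0.00451 over all genes. The count of higher members was 27 of 33 without young T replicate 3, 26 of 34 without aged T replicate 2, 24 of 34 without aged T replicate 4 and 17 of 34 without aged T replicate 3. With 1 library left out the homeostatic median ran from -0.00623 to 0.0924 and the activation median from -0.00365 to 0.15. Cst7, Itgax, Clec7a and Cd52 were under the minimum, Cd52 narrowly. limma, edgeR, limma-voom and DESeq2 called 0 genes in this experiment (0%), as did the authors' deposited table. With limma, 1 member (Tyrobp) was higher and 0 were lower at an unadjusted p under 0.05, where 4.29% of all genes were higher and 3.96% lower. In 0 members did the groups not overlap, where 0.459% of all genes did so in the higher and 0.24% in the lower direction.

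Tyrobp was at 94.6, 81.1, 149.7, 85.2 and 122 normalized counts in the aged T libraries and 41.7 to 99.2 (median 81.1) in the young T libraries. Aged T replicates 3 and 5 lay above all young T libraries and the other 3 within their range. The log2 difference was 0.52 (SE 0.24, unadjusted p = 0.0456, limma adjusted p = 0.600). With the trend of the differences with transcript length subtracted it was 0.26. Its partner Trem2 was at 133, 135, 195, 154 and 214 against 129 to 199 (median 137), overlapping, with a log2 difference of 0.14 (SE 0.16).

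P2ry12 was at 547, 427, 729, 547 and 592 in the aged T libraries and 429 to 753 (median 467) in the young T libraries, where replicate 3 held the maximum. The log2 difference was 0.17 (SE 0.15). Tmem119 was at 326, 233, 403, 325 and 399 against 232 to 403 (median 295), fully overlapping, and differed by 0.13 (SE 0.16). Cx3cr1 was at 860.5, 775, 1031, 844 and 909 against 646 to 1051 (median 841) and differed by 0.0628 (SE 0.12). Csf1r was at 1186, 1057, 1434, 1208 and 1255 against 1044 to 1506 (median 1266) and differed by -0.0404 (SE 0.10), and for these last 2 genes the sign depended on which library was left out.

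The homeostatic members next in order of p-value did not reach an unadjusted limma p of 0.05. Slc2a5, the fructose transporter of microglia, was at 94.6, 73.9, 126, 82.1 and 97.8 against 51.5 to 127 (median 70.6) (log2 difference 0.36, SE 0.22). The selectin ligand gene Selplg was at 421, 249, 383, 311 and 375 against 206 to 349.9 (median 311) (0.23, SE 0.15). The ADP receptor gene P2ry13 was at 235, 187, 249, 266 and 299.8 against 179.6 to 249 (median 218) (0.18, SE 0.13). In all 3 the groups overlapped, with unadjusted limma p-values of 0.120, 0.144 and 0.190 and adjusted p-values between 0.650 and 0.697.

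Apoe was at 31188, 30621, 42207, 25961 and 38514 against 25965 to 40789 (median 28058) and differed by 0.16 (SE 0.15). Cd63 was at 1915, 1685, 1956, 1139.8 and 2311 against 1118 to 1897 (median 1436), Cd9, another tetraspanin, at 832, 837, 998, 517 and 849 against 552 to 805 (median 679), and Fth1 at 24419, 23868, 34364, 22218 and 33766 against 20003 to 26446 (median 24105). These 3 genes of many cell types differed by 0.28, 0.22 and 0.21 (SE 0.17, 0.14 and 0.14), and in each, aged T replicate 4 was the lowest of its group. Csf1, a ligand of CSF1R, was at 405, 364, 366, 369 and 389 against 358 to 481 (median 405), a log2 difference of -0.11 (SE 0.0889).

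Of the 5 members with the smallest p-values in the aged antibody mice, Tyrobp had a fitted log2 difference of 0.52 in both experiments, and the other 4 were fitted slightly below 0 in the young recipients. Lyz2 was at 115, 73.9, 110.3, 63.9 and 77.0 in the aged T libraries and 74.4 to 136 (median 78.2) in the young T libraries, or -0.0673 in log2 difference (SE 0.21). Aif1 was at 89.8, 61.5, 90.1, 77.1 and 67.9 against 52.9 to 100.3 (median 80.7), a log2 difference of -0.0322 (SE 0.18). Fcrls differed by -0.0573 (SE 0.15) and Ly86 by -0.0256 (SE 0.17). The tables of the 2 experiments were scaled separately, so no test set one experiment against the other.

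**Figure D5:**
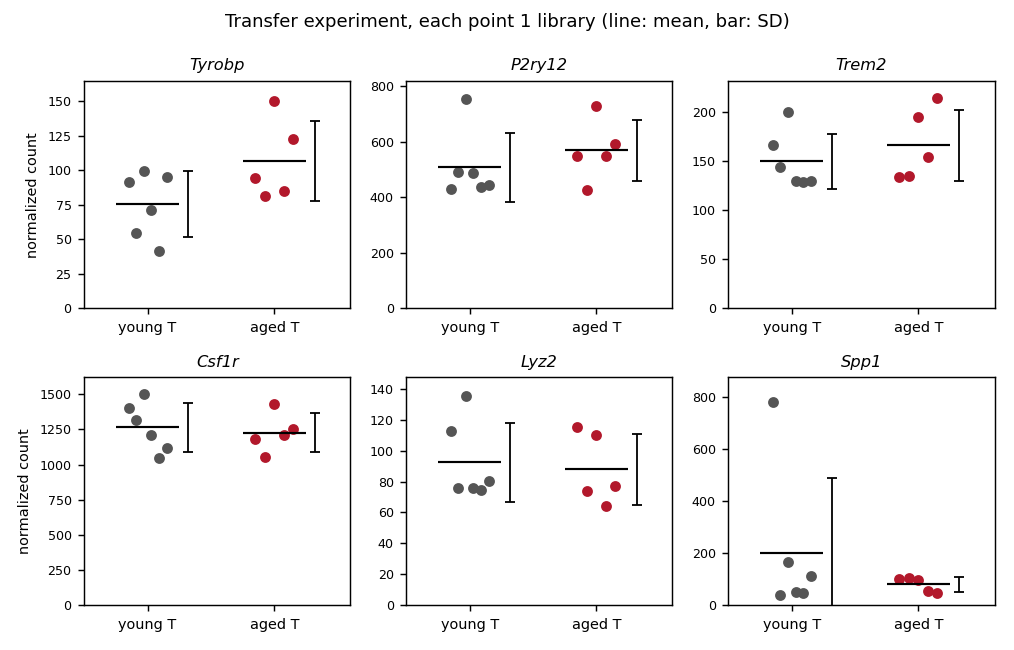
Normalized counts (y axis, from 0) of 6 members in each library of the transfer experiment, young T in grey (n = 6) and aged T in red (n = 5), with the mean as a line and the SD as a bar. The groups overlap in all 6 genes; Spp1, shown after its values were seen, has a young T replicate at 782 beside 37.9 to 164 in the other 5.

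The low-level members were near the limit of detection in the young mice. Clec7a had 31 reads over the 5 aged T libraries, at 11.3, 2.67, 4.50, 7.10 and 4.53 normalized counts, and 18 over the 6 young T libraries, at 0 to 5.83 (median 3.26). Itgax had 13 and 19 reads, at 5.67, 0.891, 1.13, 5.07 and 0 against 0 to 6.80 (median 2.80). Cst7 had 8 and 23 reads, at 0.946, 0, 2.25, 3.04 and 1.81 against 0 to 10.5 (median 2.91). A few reads separate the groups, so no direction was read from these genes at this depth. As CPM over all reads of a group, Clec7a was at 0.44 after aged and 0.22 after young T cells, and at 2.72 with the CD8a antibody and 1.17 with IgG2b in the aged mice. Cst7 was at 0.11 and 0.29 in the young recipients and at 1.62 and 0.66 in the aged mice. Age and experiment cannot be told apart in these values, which are set side by side without a test.

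Variation between libraries within a group was wider than the differences between the groups in the transfer experiment. Young T replicate 3 was the highest of its group in 21 of the 33 members tested and aged T replicate 3 in 18, whereas aged T replicate 2 was the lowest in 19 and young T replicate 5 in 12. The median level of the homeostatic members ran from -0.22 to 0.26 on the log2 scale in aged T libraries and from -0.26 to 0.36 in young T libraries, and that of the activation members from -0.20 to 0.40 and from -0.19 to 0.43. The SD between libraries of a group was 0.21 for the homeostatic and 0.26 for the activation median, against 0.14 and 0.0840 in the depletion experiment.

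Wider lists in the transfer experiment gave similarly small medians. Of 26 further microglia-enriched genes, 17 were higher (median 0.10) and 0 reached an unadjusted p under 0.05 in either direction, C1qa having the smallest p (643 against 535, log2 difference 0.25, SE 0.13). Of the damage-associated list, 15 of 20 tested were higher (median 0.0613), and Cd83, a surface protein of activated immune cells, was at 212 against 169.7 (log2 difference 0.32, limma adjusted p = 0.600). The TREM2 signalling list had 6 of 12 higher (median -0.00810), with Syk at 54.9 against 62.3 (log2 difference -0.18, limma adjusted p = 0.774). Among transcription factors 6 of 12 were higher, and Relb, a subunit of NF-kB, was at 114 ± 17.0 with aged T and 82.0 ± 7.73 with young T cells (SD, n = 5 and 6), with no overlap and a limma adjusted p of 0.600. Higher groups without overlap were seen in 0.459% of all genes.

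Cell type markers in the transfer experiment also differed in groups of genes. Fibroblast markers were lower for 10 of 10 genes with aged T cells (median -0.56), oligodendrocyte markers higher for 10 of 10 (median 0.35) and choroid plexus markers higher for 10 of 10 (median 0.34), all with overlapping sums. At an unadjusted limma p under 0.05, 3 oligodendrocyte markers (30%) were higher, where 4.29% of all genes were, and 3 fibroblast markers were lower, where 3.96% of all genes were. The summed monocyte list was 529 to 771 in aged T and 790 to 1195 in young T libraries, without overlap, which rested on Fn1 and Vcan, while Ccr2 had 6 and 31 reads over the groups and Ly6c2 had 0. Border macrophage sums were 217 to 389 and 189 to 638. The part of these cell types in the values of the 37 genes was not tested.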

How the data were processed

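Per the submitters' processing notes, the authors used STAR, RSEM and DESeq2 with the mm10 build, and libraries were strand-specific and polyA-selected per the labels' protocols. The 2 deposited tables, 1 per experiment, hold normalized counts per gene (a depth-scaled signal) beside the authors' own comparison. That comparison has a deposited log2 fold change, a test score (headed only as stat), a p-value and an adjusted p-value. That fold change is control over treated, and its sign was turned here. All values were whole multiples of 1 step per library (relative tolerance 1e-06), so the underlying reads (estimated counts as whole numbers) were recovered.

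The main test was limma 3.58.1 (trend, R 4.3.3) on log2(normalized count + 1), 2-sided, on genes with a mean of at least 10, within each experiment, with Benjamini-Hochberg adjustment over all genes tested and no covariates. Alternatives were pseudocounts of 0.5 and 5, no filter, TMM scaling, edgeR 4.0.16, DESeq2 1.42.0 and limma-voom on the reads, subtraction of the trend with transcript length, and each library left out. DESeq2 with each library left out was added after seeing the data. Scripts were tested on simulated data. Replicate numbers follow the order of deposition and pair nothing.

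The members and lists were chosen with earlier results of these data known. Values by library (range and median for the 6 young T libraries) are given for 12 fixed members and up to 8 with the smallest p per experiment. Other values are given for 4 genes with the smallest p per pathway list, and the 4 most abundant markers or those at 0 reads per cell type list. Genes given outside this rule include Spp1 in the transfer experiment, and Mertk by library and the reads of Ly6c2 in the depletion experiment. Some genes that this rule would name are not reported here. Lists also covered endothelial cells (median log2 difference 0.22 in depletion, -0.17 in transfer), oligodendrocyte precursors (-0.17, -0.0167) and dorsal hippocampus (0.25, 0.0202), and astrocytes and neurons in transfer (-0.0437, -0.0675), fibroblasts (0.36) in depletion and ventral hippocampus (-0.11) in transfer.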

Additional observations from a re-analysis of the deposited data

Results flagged for a closer look

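In 6 of the 68 groups of named members tested, the highest or lowest library stood apart from the rest of its group by more than Dixon's 95% limit (0.71 for 5 libraries and 0.625 for 6), where chance flags about 1 in 20. In each, the value given is the gap to the nearest library as a share of the group's range. Young T replicate 3 was the high library for P2ry12 (0.812, at 753 normalized counts beside 490.2 for the next), Apoe (0.642) and Slc2a5 (0.634). In the aged mice, IgG2b replicate 1 was high for Trem2 (0.801, at 241 beside 199), IgG2b replicate 2 was low for Cst7 (0.925, at 4.65 beside 8.38), and antibody replicate 2 was high for Cd63 (0.783, at 2404 beside 1850.3).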

How the results depend on the processing

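No paired analysis was possible because replicate numbers follow the order of deposition and the numbers in the sample titles are not shared between the groups of an experiment. Scaling alternatives moved the median of all genes by under 0.1 on the log2 scale. In the transfer experiment, 1 member had an unadjusted p under 0.05, and this count was 0 without the filter and 0 with edgeR, and 0 to 3 with 1 library left out (3 without aged T replicate 2 or 4 or young T replicate 3, all higher, where 5.005%, 6.77% and 6.37% of all genes were). With the length trend subtracted, Csf1r turned to 0.0250 and Trem2 to -0.00373, and with 1 library left out Cx3cr1 ran from -0.0137 to 0.13, Csf1r from -0.0981 to 0.0118, Lyz2 from -0.17 to 0.0505 and Aif1 from -0.14 to 0.0451. In the depletion experiment, 1 gene was called among all genes, against 0 without the filter, 92 with DESeq2, and 0 to 25 with 1 library left out (25 without antibody replicate 5). The count of 15 members at an unadjusted p under 0.05 ran from 8 to 19. The activation median of 0.43 was 0.33 with the length trend subtracted and 0.36 to 0.53 with 1 library left out (0.53 without IgG2b replicate 1), and the homeostatic median of 0.26 was 0.18 to 0.31. Among single members, with 1 library left out P2ry12 ran from 0.25 to 0.52, Tmem119 from 0.18 to 0.33, Cx3cr1 from 0.18 to 0.44, Csf1r from 0.11 to 0.25, Apoe from 0.12 to 0.25 and Cst7 from 0.66 to 1.32. DESeq2 called 0 to 4 members with 1 library left out, where it called 0.021% to 1.08% of all genes higher. The cause of these shifts was not tested. Shallow members such as Itgax and Cst7 are limited by their read numbers.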
